A study of Homo sapiens with 3 samples.

Results

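YAP and TEAD, the transcriptional output of the Hippo pathway, were followed through 10 genes: the coactivator genes YAP1 and WWTR1, the TEAD1 and TEAD4 genes of their DNA-binding partners, the pathway regulators LATS2, AMOTL2 and AJUBA, and the target genes CYR61, CTGF and ANKRD1. The 10 genes were chosen by their symbols, with earlier results of these data known, and all 10 of them were found among the 25266 gene symbols used. All 10 had a mean of at least 1 FPKM (fragments per kilobase of transcript, scaled to library size) over the 3 libraries, as had 12207 of all genes, which are called the genes kept. Bulk RNA-seq was done on HepG2, a human hepatocellular carcinoma line. HepG2-wild is the untreated parental culture. HepG2-metR is labelled as HepG2 kept under metformin, a complex I inhibitor, for longer than 5 months, and it was made as a hyper-glycolytic model of high lactate. HepG2-metR-oxa is the same selected line given oxamate, which blocks lactate dehydrogenase, at 40 mM for 24 h. Each condition has 1 library (n = 1), HepG2-metR is a single selected line, and each difference below therefore has no replicate check, no error and no p-value.

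The Hippo pathway is a kinase chain in which the MST kinases activate the LATS kinases, and LATS kinases phosphorylate YAP (YAP1) and TAZ (WWTR1) so that they stay in the cytoplasm or are degraded. When the chain is off, YAP and TAZ enter the nucleus, bind a TEAD protein and switch on genes such as CTGF, CYR61 and ANKRD1. LATS2 and AMOTL2 are targets as well as inhibitors, so the pathway holds feedback loops, and in liver it is known for its part in organ size, hepatocyte identity and hepatocellular carcinoma. YAP and TAZ are controlled mainly as proteins, and an mRNA level is not a measure of their activity.

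The libraries differed beyond these genes. Summed FPKM was 562350 in HepG2-wild, 534639 in HepG2-metR and 473764 in HepG2-metR-oxa, and the low values put the sequencing depth of the selected libraries at 1.21 and 1.24 times that of HepG2-wild, while the number of reads is not known. Of 12 hepatocyte marker genes, 12 were at 68.7 FPKM or more in HepG2-wild, with a summed level of 34581 FPKM, whereas 2 were at 1 FPKM or more in HepG2-metR and in HepG2-metR-oxa, with summed levels of 14.0 and 11.4 FPKM. The liver label of the selected line is thus not borne out by these 12 markers. ALB (albumin) was at 0.747 FPKM and TTR (transthyretin) at 0 in HepG2-metR, and the 2 markers left were SERPINA1 (11.2 FPKM) and FGB (1.30 FPKM). Epithelial markers were mixed. The keratin genes KRT8 (1080, 897 and 664 FPKM) and KRT18 (605, 787 and 606 FPKM) were high in all 3 libraries, while EPCAM, KRT19 and CDH1 were lower in both selected libraries. The 10 mesenchymal markers summed to 1573 FPKM in HepG2-wild, 1503 FPKM of it from FN1, which hepatocytes also secrete, and to 2280 and 1721 FPKM in the selected libraries, led by VIM. RNA levels cannot settle whether the selected culture descends from the parental one, and its labelled origin is used here as given. In each comparison with HepG2-wild, the selection and any other difference between the cultures cannot be told apart, and in bulk RNA fewer cells of a type and less RNA per cell cannot be told apart either.

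The 6-base core to which TEAD proteins bind, GGAATG or CATTCC on the other strand, was looked for in the promoter windows of RefSeq (GRCh38.p14), which run from 250 bases before to 50 bases after a start site. Windows were found for 7 of the 10 genes, and TEAD1, TEAD4 and CYR61 had none. A motif was in at least 1 window of 6 of the 7 genes, against 16.7% of the 27305 genes with a window. The other gene is WWTR1. A match of letters is a description and not a measured binding site. The 250 bases before the start sites of CTGF and ANKRD1 are printed because these targets hold 3 and 2 motifs, and because they differed in opposite directions between HepG2-metR and HepG2-wild (values below). Capitals mark the motif. The CTGF stretch is chr6:131951373-131951622 and the ANKRD1 stretch chr10:90921088-90921337, both on the minus strand and written 5′ to 3′.

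CTGF: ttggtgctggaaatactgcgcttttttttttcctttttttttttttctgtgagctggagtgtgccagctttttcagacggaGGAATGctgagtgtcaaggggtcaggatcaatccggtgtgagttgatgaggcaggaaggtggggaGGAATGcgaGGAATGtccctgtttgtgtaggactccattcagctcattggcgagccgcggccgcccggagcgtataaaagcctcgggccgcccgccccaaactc

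ANKRD1: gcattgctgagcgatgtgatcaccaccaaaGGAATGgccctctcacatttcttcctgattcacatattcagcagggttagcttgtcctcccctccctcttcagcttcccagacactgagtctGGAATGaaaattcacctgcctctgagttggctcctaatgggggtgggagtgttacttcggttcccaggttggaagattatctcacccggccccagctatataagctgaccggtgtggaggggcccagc

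In CTGF the motifs began 169, 104 and 95 bases before the start, and 3 or more motifs were found in 0.128% of all 35116 windows. In ANKRD1 they began 220 and 128 bases before it, and 2 or more were in 1.37% of windows. The other 4 genes had 1 motif each, shown here in 30 bases, with AMOTL2 and AJUBA holding it in 1 of their 2 windows. In YAP1 the motif began 162 bases before the start (chr11:102110273-102110302, plus strand), in AMOTL2 69 bases before it (chr3:134374499-134374528, minus strand), in AJUBA 59 bases before it (chr14:22976884-22976913, minus strand) and in LATS2 at base 10 of the transcript (chr13:21061560-21061589, minus strand).

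YAP1: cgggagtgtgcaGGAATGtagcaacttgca
AMOTL2: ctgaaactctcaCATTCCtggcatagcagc
AJUBA: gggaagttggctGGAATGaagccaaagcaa
LATS2: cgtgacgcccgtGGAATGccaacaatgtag

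**Figure D1:**
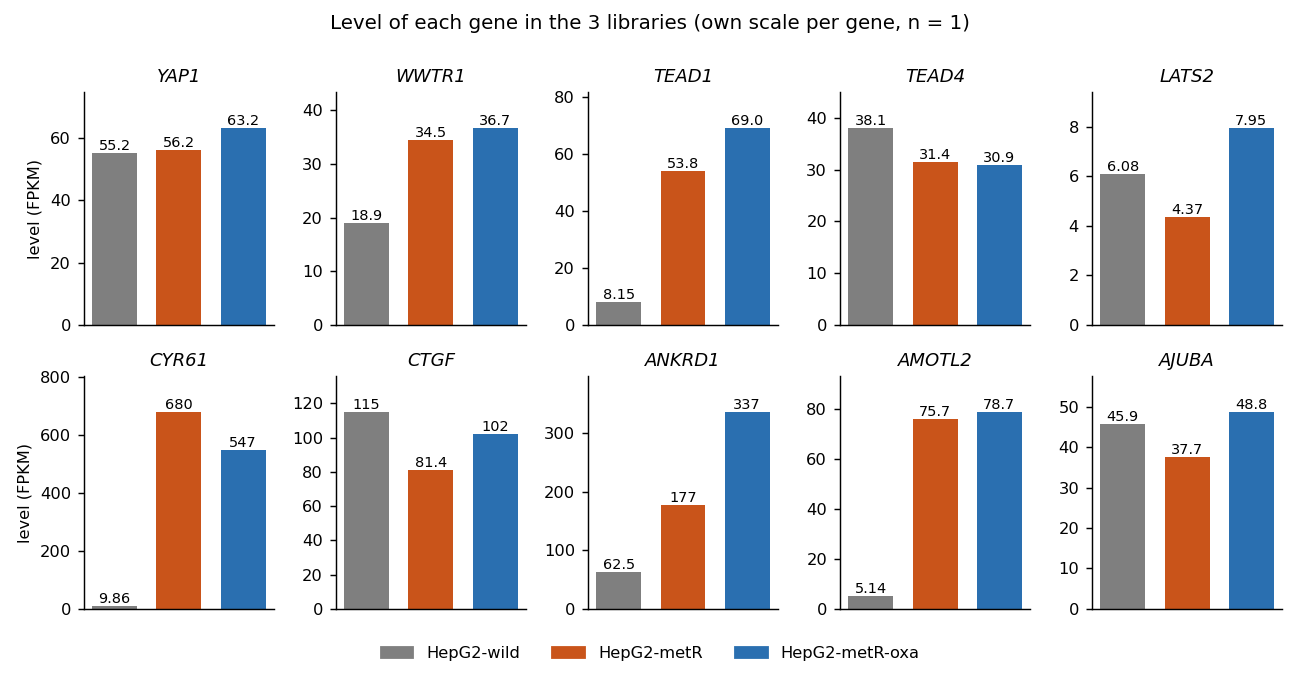
Level in FPKM (vertical axis, from 0, own scale per gene) of the 10 genes in HepG2-wild (grey), HepG2-metR (orange) and HepG2-metR-oxa (blue), 1 library each. CYR61, AMOTL2, TEAD1 and ANKRD1 stood well above HepG2-wild in both selected libraries, while YAP1 lay between 55.2 and 63.2 FPKM in all 3.

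The first comparison, HepG2-metR against HepG2-wild, asks which genes differ in the line made as a model of high lactate. Changes are differences of log2(FPKM + 1), so that a 2-fold change, the threshold of this comparison, is 1. Of the 10 genes, 4 passed 2-fold upwards in HepG2-metR (CYR61, AMOTL2, TEAD1 and ANKRD1), against 16.6% of all genes kept, and 0 were at least 2-fold lower, against 17.6%. The median change of the 10 genes was 0.43, and that of all genes kept was 0.02. The other 6 lay between -0.50 for CTGF and 0.84 for WWTR1.

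YAP1 itself was at 55.2 FPKM in HepG2-wild, 56.2 in HepG2-metR and 63.2 in HepG2-metR-oxa. Its level was nearly flat over the libraries, with changes of 0.03 in HepG2-metR against HepG2-wild and 0.17 with oxamate, each smaller in size than the median absolute change of all genes kept (0.65 and 0.21). WWTR1, which encodes the YAP paralog TAZ, was at 18.9, 34.5 and 36.7 FPKM in the same order. WWTR1 was thus higher in both selected libraries, with a change of 0.84 that is under the 2-fold threshold, also under upper-quartile scaling (0.98). The ratio of YAP1 to WWTR1 was 2.92 in HepG2-wild, 1.63 in HepG2-metR and 1.72 in HepG2-metR-oxa, which makes YAP1 the higher of the pair throughout. WWTR1-AS1, an antisense gene whose reads cannot be separated from those of WWTR1 without strand, was at 0.114 to 0.221 FPKM.

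The TEAD genes differed in their order. TEAD1 was at 8.15 FPKM in HepG2-wild, 53.8 in HepG2-metR and 69.0 in HepG2-metR-oxa. TEAD4 was at 38.1, 31.4 and 30.9 FPKM. TEAD1 was low in HepG2-wild and high in both selected libraries (change 2.58, a size reached by 4.48% of genes kept), whereas TEAD4 stayed within 0.29 of its parental level on the log2 scale. TEAD2, at 10.4, 5.96 and 5.58 FPKM, differed by -0.71, and TEAD3, at 16.4, 5.00 and 6.60 FPKM, by -1.54. Of the summed level of the 4 genes, which was 73.0, 96.2 and 112 FPKM, TEAD1 made up 11.2% in HepG2-wild, 55.9% in HepG2-metR and 61.6% in HepG2-metR-oxa. TEAD4 made up 52.1%, 32.7% and 27.6%. The leading TEAD transcript was therefore that of TEAD4 in the parental culture and of TEAD1 in both selected libraries.

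**Figure D2:**
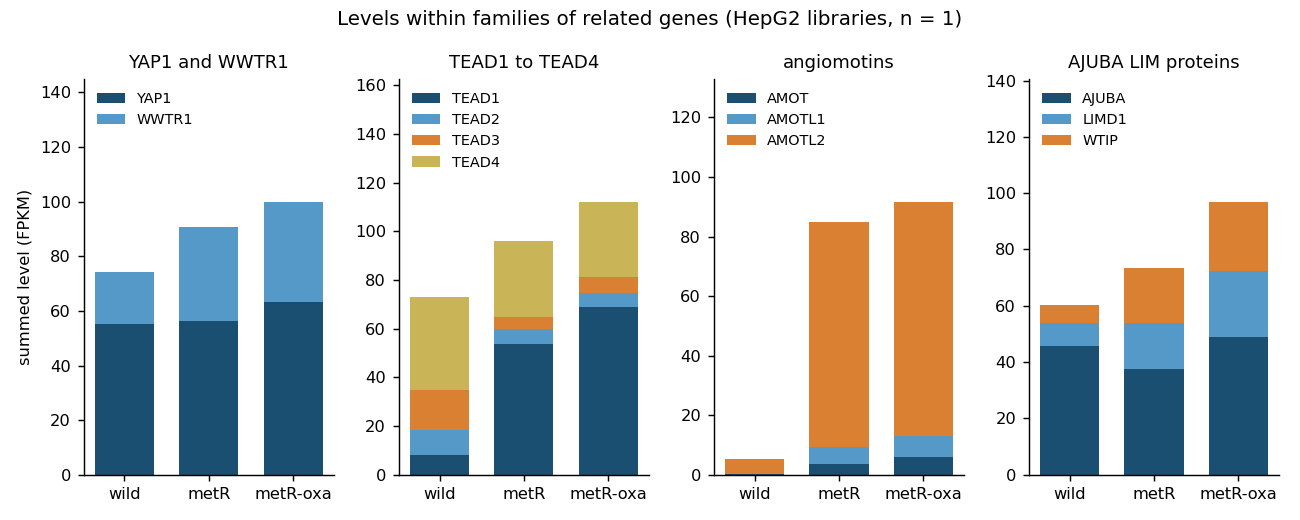
Stacked levels in FPKM (vertical axis) of related genes in the HepG2-wild, HepG2-metR and HepG2-metR-oxa libraries, 1 library each, with 1 colour per gene. TEAD1 went from 11.2% to 55.9% of the TEAD total between HepG2-wild and HepG2-metR, and the angiomotin total from 5.47 to 85.0 FPKM.

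Among the regulators, AMOTL2, an angiomotin that holds YAP at cell junctions and in the cytoplasm, differed most. It was at 5.14 FPKM in HepG2-wild, 75.7 in HepG2-metR and 78.7 in HepG2-metR-oxa, the lowest of the 10 genes in the first library and the fourth highest in the others. Its change was 3.64, a size reached by 2.28% of genes kept. The related angiomotin genes were also higher in HepG2-metR: AMOT was at 0.220, 3.60 and 5.94 FPKM (change 1.92) and AMOTL1 at 0.111, 5.76 and 7.02 FPKM (change 2.60). AMOTL2 remained the main angiomotin transcript, at 94.0%, 89.0% and 85.9% of the summed level.

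LATS2, a kinase that phosphorylates YAP and TAZ, was low everywhere, at 6.08 FPKM in HepG2-wild, 4.37 in HepG2-metR and 7.95 in HepG2-metR-oxa. HepG2-metR was the lowest of the libraries, and its change from HepG2-wild was -0.40. LATS1, the other LATS kinase, was at 5.43, 4.69 and 6.12 FPKM, a change of -0.17. AJUBA, a LIM protein that binds and restrains LATS kinases, was at 45.9, 37.7 and 48.8 FPKM, a change of -0.28. Its relatives LIMD1, at 8.20, 16.3 and 23.7 FPKM, and WTIP, at 6.07, 19.3 and 24.5 FPKM, differed by 0.91 and 1.52. AJUBA accordingly went from 76.3% to 51.4% of the summed level of these LIM genes.

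The classical targets did not all differ in the same direction. CYR61, a secreted matricellular protein of the CCN family, was at 9.86 FPKM in HepG2-wild, 680 in HepG2-metR and 547 in HepG2-metR-oxa. Its change of 5.97, or 62.7-fold on the FPKM + 1 scale, was the widest of the 10 genes, and 38 of the 12207 genes kept had a change at least as high. CTGF, of the same family and the gene with 3 motifs above, was at 115, 81.4 and 102 FPKM, highest in HepG2-wild, and differed by -0.50. CYR61 was thus 0.0856 times CTGF in HepG2-wild and 8.36 times CTGF in HepG2-metR. ANKRD1, an ankyrin repeat protein and co-regulator of transcription, was at 62.5, 177 and 337 FPKM, each library above the one before, and differed by 1.49 between the first pair. The other CCN genes were hardly detected, with NOV at 0.0171, 0.720 and 1.66 FPKM, WISP2 at 0 to 0.0560 and WISP1 listed at 0 in all libraries.

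Oxamate was compared within the selected line, HepG2-metR-oxa against HepG2-metR, to ask which genes differ in the culture given this lactate dehydrogenase inhibitor. The threshold here is 1.5-fold (0.58), and this comparison shares the HepG2-metR library with the first. With oxamate 2 of the 10 genes were at least 1.5-fold higher, ANKRD1 and LATS2, against 4.3% of all genes kept, and 0 were at least 1.5-fold lower, against 3.82%. ANKRD1 went from 177 to 337 FPKM, a change of 0.92, and 99 of the 12207 genes kept had a change at least as high. LATS2 went from 4.37 to 7.95 FPKM, a change of 0.74, which 1.96% of genes kept reached. The feedback inhibitor LATS2 and the target ANKRD1 were therefore the members furthest from their untreated level.

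The remaining 8 genes lay between -0.31 and 0.36 with oxamate. CYR61 was the lowest of them, at 547 against 680 FPKM (-0.31), and -0.14 when each library was scaled to the same total. TEAD4 was the other gene below 0, at -0.02, and above 0 with upper-quartile scaling (0.02) or the same total (0.15). The changes of AJUBA (0.36), TEAD1 (0.35), CTGF (0.33), YAP1 (0.17), WWTR1 (0.09) and AMOTL2 (0.06) were above 0. Scaling to the same total put the median of all genes kept at 0.17, and relative to that median the changes of YAP1, WWTR1 and AMOTL2 were 0.17, 0.09 and 0.06 and those of ANKRD1, LATS2 and CYR61 0.93, 0.72 and -0.30. The order of the 10 levels was nearly the same with and without oxamate, with CYR61, ANKRD1, CTGF and AMOTL2 on top and LATS2 last in both, and TEAD1 and YAP1 exchanging the fifth and sixth places.

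**Figure D3:**
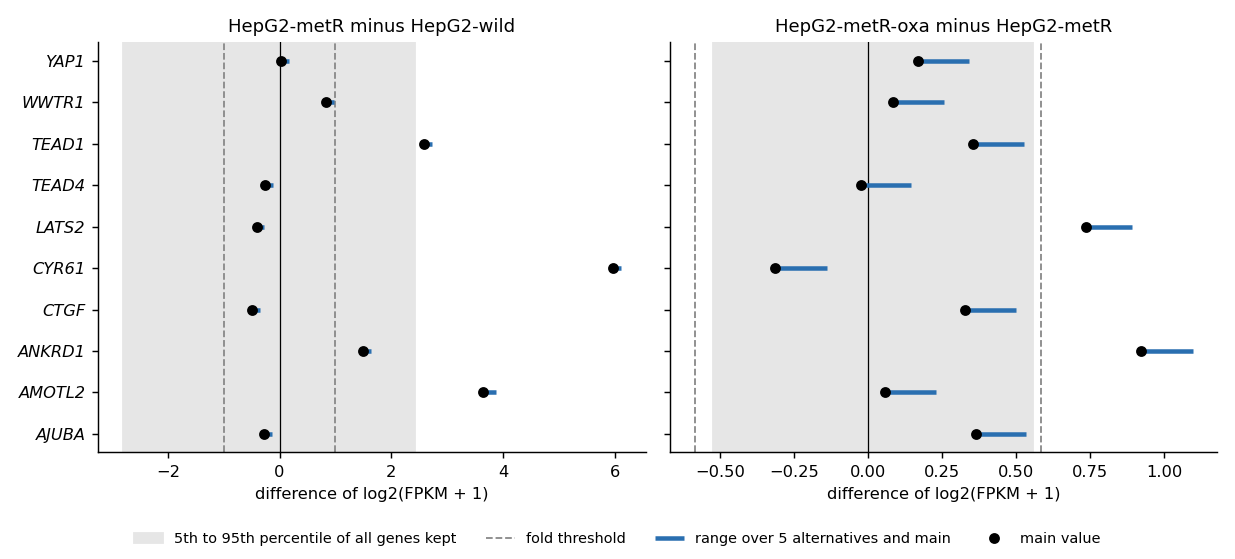
Difference of log2(FPKM + 1) (horizontal axis) for the 10 genes in HepG2-metR minus HepG2-wild (left) and HepG2-metR-oxa minus HepG2-metR (right), as a black point, with the range over 5 alternative scalings and pseudocounts as a blue line, the 5th to 95th percentile of all genes kept in grey and the fold threshold dashed. CYR61, AMOTL2 and TEAD1 lie beyond the grey band on the left, and ANKRD1 and LATS2 on the right.

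A wider list of 17 genes that are common YAP and TAZ targets in cancer cells, none of them among the 10, was examined in the same way, and 16 of them were kept. Of the 16, 13 passed 2-fold upwards in HepG2-metR, against 16.6% of all genes kept, and 0 passed it downwards, against 17.6%. The median change was 2.13 over all 16. This list and those below came from general knowledge, but were chosen with earlier results of these data known. Their counts therefore describe the lists and are not an independent check. Among the 13, IGFBP3, CCDC80, MYOF, FJX1, TGFB2 and RBMS3 were under 1 FPKM in HepG2-wild. They were kept only through the selected libraries, so for them the filter favoured a call upwards. IGFBP3, which binds insulin-like growth factors, was at 0.238 FPKM in HepG2-wild, 193 in HepG2-metR and 202 in HepG2-metR-oxa. CCDC80, a matrix protein, was at 0.0543, 95.3 and 91.3 FPKM. AXL, a receptor tyrosine kinase, was at 3.22, 231 and 215 FPKM. These 3 genes differed most, with changes of 7.29, 6.51 and 5.78, and each was high in both selected libraries and low in the parental one. GADD45A, ARHGEF17 and DOCK5 were the kept genes under the threshold, with changes of 0.96, 0.94 and 0.24.

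With oxamate, 1 of the 16 kept target genes was at least 1.5-fold higher (6.25%) and 0 at least 1.5-fold lower, near the 4.3% and 3.82% of all genes kept. The median change was 0.14, beside 0.02 for all genes kept. The 1 gene was TGFB2, a secreted ligand of the TGF-beta family, at 0.0791, 37.4 and 57.9 FPKM in HepG2-wild, HepG2-metR and HepG2-metR-oxa, a change of 0.62. Some mesenchymal markers, but not all, were higher in the same libraries as the target list. VIM was at 1.23, 1576 and 1140 FPKM. Of the 8 mesenchymal markers kept, 5 passed 2-fold upwards in HepG2-metR and 1 (FN1) downwards, against 16.6% and 17.6% of all genes kept. Among the 5, SNAI2, TWIST1 and THY1 were under 1 FPKM in HepG2-wild and were kept only through the selected libraries. CDH2 was nearly flat, at 35.2, 33.4 and 36.1 FPKM. COL1A1, at 1.22, 0.494 and 0.677 FPKM, and COL1A2, at 0.141, 0.0129 and 0.0189 FPKM, were highest in HepG2-wild and were not kept. The part of the mesenchymal difference in the target list was not tested.

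Upstream, 26 other Hippo genes were listed and 25 kept. In HepG2-metR 8 of them (32%) passed 2-fold upwards, against 16.6% of all genes kept, and 1 (4%) downwards, against 17.6%. The median change was 0.60, beside 0.02 for all genes kept. Among the 8, AMOT, AMOTL1 and FAT4 were under 1 FPKM in HepG2-wild. They were kept only through the selected libraries, so for them the filter favoured a call upwards. With a mean of at least 5 FPKM as the filter, 5 Hippo genes passed upwards. FRMD6, a FERM protein of the membrane arm of the pathway, was at 1.38, 28.8 and 30.3 FPKM, with the largest change of the list, 3.65, followed by AMOTL1 and AMOT (above). MAP4K4, a kinase that can act on LATS beside the MST kinases, was at 115, 18.2 and 17.4 FPKM, a change of -2.59. With oxamate 2 of the 25 (8%) were at least 1.5-fold higher and 0 lower, against 4.3% and 3.82% of all genes kept. These were MOB1B, a LATS coactivator, at 5.32, 9.22 and 17.2 FPKM (change 0.83), and AMOT (0.59), and the median change of the list was 0.25.

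Of the other TEAD genes and the VGLL genes, whose products can compete with YAP for TEAD, 4 of 6 were kept. In HepG2-metR 1 of these 4 was at least 2-fold higher, against 16.6% of all genes kept, and 1 at least 2-fold lower, against 17.6%. VGLL3, a vestigial-like cofactor of TEAD, was at 0.0319 FPKM in HepG2-wild, 6.30 in HepG2-metR and 15.4 in HepG2-metR-oxa, with changes of 2.82 and 1.17, each library above the one before. VGLL3 was kept only through the selected libraries. It was also the 1 gene of the 4 at least 1.5-fold higher with oxamate, against 4.3% of all genes kept. TEAD3 (-1.54) was the lower gene in HepG2-metR. Of 7 AP-1 genes, whose products often bind enhancers together with TEAD, 5 were kept. FOSL1 was at 11.5, 192 and 115 FPKM, FOSL2 at 4.10, 33.7 and 39.1, and JUN at 15.7, 48.3 and 45.2, which made 3 of the 5 at least 2-fold higher in HepG2-metR (3.95, 2.77 and 1.56), against 16.6% of all genes kept. JUND, at 23.6, 3.92 and 3.99 FPKM, was the 1 AP-1 gene at least 2-fold lower (-2.32), against 17.6%. With oxamate FOSL1 was the 1 AP-1 gene past 1.5-fold, at -0.74, against 3.82% of all genes kept that were lower.

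**Figure D4:**
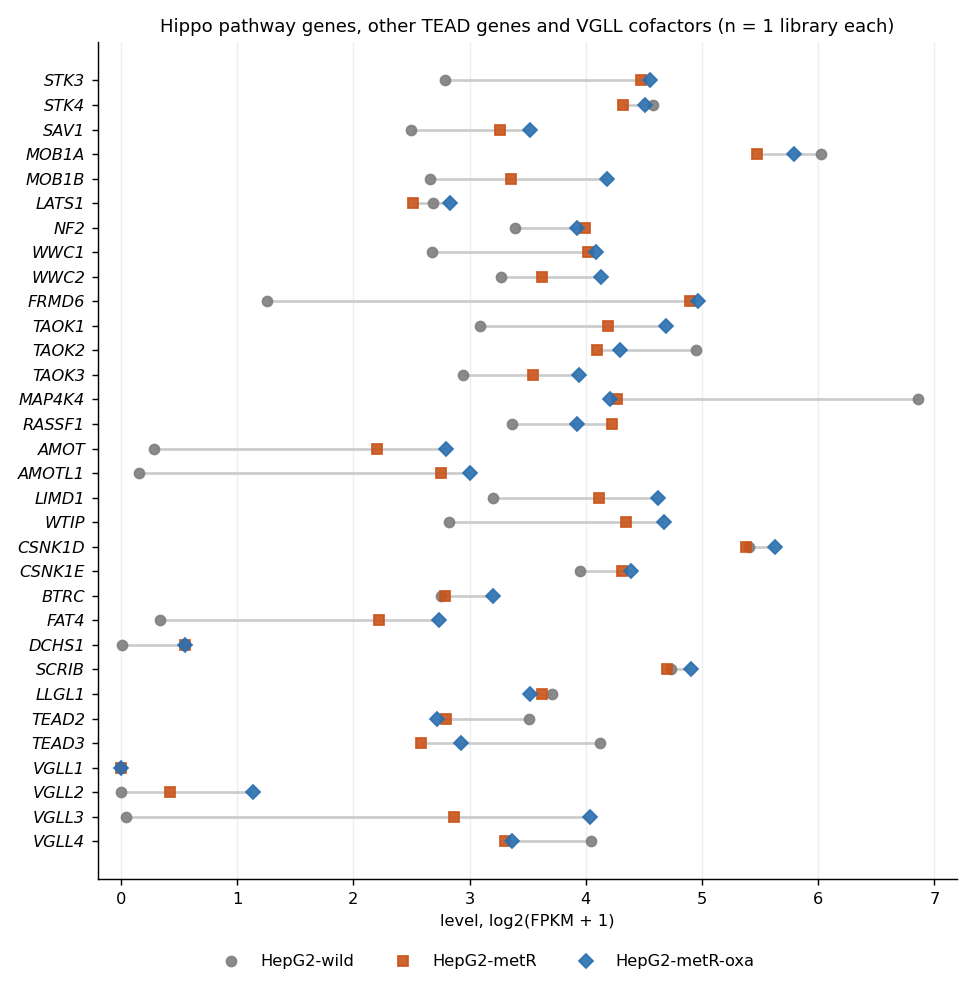
Level as log2(FPKM + 1) (horizontal axis) of 26 Hippo pathway genes, TEAD2, TEAD3 and the VGLL genes in HepG2-wild (grey circle), HepG2-metR (orange square) and HepG2-metR-oxa (blue diamond), 1 library each. FRMD6, AMOT, AMOTL1, FAT4 and VGLL3 are below 2 in the parental library and above 2 in both selected libraries, and MAP4K4 is higher in the parental library than in either selected one.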

How the data were processed

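Total RNA of 3 cultures was sequenced by the authors on an Illumina sequencer. The submitters' processing notes name STAR 2.5.1b, FastQC 0.11.5, Cufflinks 2.2.1 and hg19; the annotation, the strand setting and filters are not given in the sources used here. The authors deposited log2 values of FPKM + 1, 1 per gene symbol; the form was inferred, because 100% of values over 1 FPKM, back-transformed, had at most 6 significant digits (relative tolerance 2e-07). Of 25270 rows, 4 with repeated symbols were left out.

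Values were used without rescaling, and genes with a mean of at least 1 FPKM were kept. Changes are differences of log2 values with their pseudocount of 1, which understates the change of low genes. Fold thresholds follow the study's methods, which give 1.5-fold for a decrease with oxamate, while its results name a 2-fold cut-off. Here 1.5-fold was used for increases with oxamate as well. With 1 library per condition nothing was tested. Relative depth was taken as the commonest ratio between libraries among genes under 0.15 FPKM. The number of reads is unknown, and no counting interval is given. Named beyond the 10 genes were their paralogs, antisense genes (LATS2-AS1 had no row), and up to 3 genes per list and direction past the fold. Members, lists and alternatives were chosen with earlier results of these data known; the lists came from general knowledge. Marker lists held 12 hepatocyte, 6 epithelial, 10 mesenchymal, 4 endothelial and 4 blood genes. Promoter sequences are from RefSeq (GRCh38.p14), with CYR61 and CTGF matched as CCN1 and CCN2. The calculation was tested on simulated data. Python 3.11.15, numpy 2.4.6, pandas 2.3.3 and matplotlib 3.10.9 were used.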

Additional observations from a re-analysis of the deposited data

How the results depend on the processing

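Values were recomputed with a pseudocount of 0.1, without a pseudocount, without a filter, with a mean of at least 5 FPKM, with median-of-ratios, upper-quartile or same-total scaling, and 2-fold or 1.5-fold in both comparisons. Of 108 recomputed counts, 99 stayed within 1.5 times the reported count. Part of this was fixed in advance, because 2-fold is already the threshold of the first comparison and 1.5-fold that of the second. Many other counts were 0 before and after. The counts that moved further than 1.5 times were as follows. At 2-fold in both comparisons, 0 of the 10 genes, 0 Hippo genes and 0 further target genes were higher with oxamate. At 1.5-fold in both, 14 Hippo genes were higher and 2 lower in HepG2-metR. At a mean of at least 5 FPKM, 5 Hippo genes were higher in HepG2-metR and 1 with oxamate. With the same total in each library, 6 Hippo genes and 2 further target genes were higher with oxamate. That scaling put the median of all genes kept at 0.17 with oxamate, beside 0.02 as deposited. The share of all genes past the fold was not computed at these alternative settings, so these counts have no background beside them. Of 100 recomputed changes of the 10 genes, 98 kept their direction and side of the threshold, and the other 2 were those of TEAD4 with oxamate given in the report. Upper-quartile scaling put the median of all genes kept at 0.15 in HepG2-metR against HepG2-wild, beside 0.02 as deposited, and WWTR1 was 0.83 above that median. No paired analysis was possible because each condition has 1 library, and no library could be left out. FPKM cannot show how many fragments stand behind the low LATS2 values.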

Other observations

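The kinase pair at the head of the Hippo chain also changed its make-up between the cultures; these genes were singled out after their values had been seen. STK3 (MST2) was at 5.90 FPKM in HepG2-wild, 21.3 in HepG2-metR and 22.4 in HepG2-metR-oxa, and STK4 (MST1) at 22.9, 18.9 and 21.8 FPKM. STK3 was therefore 20.5% of their summed level in HepG2-wild and 52.9% and 50.7% in the selected libraries. The LATS coactivator MOB1B, named in the report, made up 7.65%, 17.5% and 24.0% of the summed level of MOB1A and MOB1B, of which MOB1A was at 64.2, 43.4 and 54.4 FPKM. FAT4, an atypical cadherin, was at 0.263, 3.66 and 5.68 FPKM, with changes of 1.88 and 0.52.

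Of 12 of the 17 further target genes with a RefSeq promoter window, 5 held the GGAATG motif on either strand (NUAK2, PTPN14, TGFB2, FOXF2 and AXL), beside 16.7% of all genes with a window. The most changed genes IGFBP3 and CCDC80 were not among these 5, which can mean either no motif in a window or no window. Of the 5 epithelial markers kept, 3 passed 2-fold downwards in HepG2-metR (EPCAM, KRT19 and CDH1), against 17.6% of all genes kept. EPCAM and CDH1 were kept only through HepG2-wild, so for them the filter favoured a call downwards. CLDN3, at 0.0775, 0.673 and 0.787 FPKM, was higher in the selected libraries and was not kept. The epithelial markers differed among themselves: EPCAM was at 102, 0.0900 and 0.0661 FPKM and KRT8 at 1080, 897 and 664 FPKM. The 4 endothelial markers were at 0.192 FPKM or less in all libraries, and of the blood markers CD14 was the highest, at 2.19, 0.715 and 0.607 FPKM.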
